A study of Homo sapiens with 12 samples.

Results

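The inhibin and activin system was examined as 10 genes chosen by symbol, namely the subunit genes INHA, INHBA, INHBB and INHBE, the antagonist genes FST and FSTL3, and the receptor genes ACVR1B, ACVR2A, ACVR2B and TGFBR3. All 10 were listed among the 60662 genes of the expression table. The cells, NCI-H295R, come from a human carcinoma of the adrenal cortex and make cortisol, and as 1 tumor line they stand for no other adrenal cell. There were 4 replicates in each of 3 groups, named by what the culture held during the last 24 h. These were VEH, the solvent alone (DMSO at 0.1%), CJ28, a benzimidazolylurea, and MET, metyrapone, which blocks the last enzymatic step to cortisol, both at 30 µM. All cultures had gone without serum for 12 h beforehand. RNA depleted of ribosomal RNA was sequenced, and the values are TPM, a share of the library corrected for transcript length, so levels of different genes can be set side by side. TPM keeps no record of depth, so no counting error is given for a single value.

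Activins are dimers of beta subunits, and inhibins pair the alpha subunit, encoded by INHA, with a beta subunit. Activin A, a dimer of the beta A subunit encoded by INHBA, binds the type II receptors encoded by ACVR2A and ACVR2B. These engage the type I receptor encoded by ACVR1B and signal through SMAD2 and SMAD3. Other beta subunits need not use the same type I receptor, and which receptor the product of INHBE uses was not tested here. Inhibins hold type II receptors away from activins with the help of betaglycan, the co-receptor encoded by TGFBR3, and follistatin (FST) and the follistatin-like protein of FSTL3 bind activins outside the cell. The adrenal cortex produces both alpha and beta subunits, and the alpha subunit is used as a marker of adrenocortical tumors.

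In CJ28 the transcript of the beta E subunit, INHBE, was 4.78-fold that of VEH, while FST and INHA were 2.08-fold and 2.52-fold lower by the ratio of mean TPM. TGFBR3 and ACVR1B fell less, by 0.49 and 0.32 on the log2 scale. With MET no member passed the test against VEH. Of the 8 members with enough signal to be tested, 6 were called in the comparison of CJ28 with VEH (limma, Benjamini-Hochberg adjusted p below 0.05), 1 higher and 5 lower, where 57.0% of all 16815 tested genes were (19.9% higher and 37.1% lower), so the count says little about these genes as a group. INHBA and INHBB, the subunits of the classical activins, did not reach 0.5 TPM in 4 samples, the minimum for the test. The 250 bases before the start site are shown for INHA, FST and INHBA, because these 3 genes differed between CJ28 and VEH and hold matches to the motifs searched. The sequences are RefSeq's on GRCh38.p14, 5′ to 3′ along the gene. Capitals mark matches to any of the motifs searched. INHA is read from chr2:219572060-219572309 on the plus strand, FST from chr5:53480379-53480628 on the plus strand and INHBA from chr7:41703091-41703340 on the minus strand. The RefSeq start of INHA and that of INHBA used here lie downstream of the outermost start of the locus that was quantified, so both windows fall inside the gene spans given below, and they stand for 1 of several annotated starts.
INHA: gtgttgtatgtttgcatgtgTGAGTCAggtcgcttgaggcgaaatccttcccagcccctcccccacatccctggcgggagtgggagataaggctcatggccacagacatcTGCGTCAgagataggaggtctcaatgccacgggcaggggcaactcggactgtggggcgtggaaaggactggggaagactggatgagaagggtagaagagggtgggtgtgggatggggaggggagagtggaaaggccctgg
FST: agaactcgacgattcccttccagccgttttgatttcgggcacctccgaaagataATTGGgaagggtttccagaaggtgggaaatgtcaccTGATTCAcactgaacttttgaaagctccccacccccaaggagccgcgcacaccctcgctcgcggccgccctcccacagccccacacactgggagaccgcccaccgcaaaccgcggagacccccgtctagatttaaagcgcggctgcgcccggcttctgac
INHBA: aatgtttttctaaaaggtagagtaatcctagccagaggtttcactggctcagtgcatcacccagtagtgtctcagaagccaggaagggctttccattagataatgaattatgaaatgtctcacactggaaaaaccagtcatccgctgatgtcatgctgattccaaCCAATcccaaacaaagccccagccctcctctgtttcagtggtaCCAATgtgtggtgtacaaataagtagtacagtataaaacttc

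The windows were searched on both strands for TGACGTCA, the full cAMP response element, for TGCGTCA, a variant of it, for TGANTCA, the AP-1 element, for AAGGTCA, a half-site of steroidogenic factor 1, for TGATGNAAN, the core of amino acid response elements, and for CCAAT. The promoter table held 9 of the 10 members in 10 windows, and INHBE had no entry. INHA held the variant TGCGTCA, starting 140 bases before the start site, and TGAGTCA, an AP-1 match starting 230 bases before it. Of all 35116 windows searched, 2.09% held TGCGTCA and 6.57% held TGANTCA. FST held an AP-1 match, TGATTCA, starting 160 bases before the start, and a CCAAT match on the reverse strand. INHBA held 2 CCAAT matches, a motif found in 32.0% of all windows. None of the 7 windows of the other members held a match to any of the 6 motifs, and TGACGTCA, AAGGTCA and TGATGNAAN, present in 1.65%, 3.44% and 3.13% of all windows, were in none of the 10. A match gives letters only and does not show that a factor was bound.

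Among the subunits, INHBE (ENSG00000139269.3, chromosome 12, 57452323 to 57459280 on GRCh38), which encodes the beta E subunit and is known chiefly from liver, had 0.99, 0.90, 1.00 and 0.84 TPM in VEH replicates 1 to 4. In CJ28 it had 4.48, 4.77, 4.18 and 4.40 TPM, and in MET 0.46, 0.89, 1.02 and 0.89 TPM. Every CJ28 sample lay above every VEH and every MET sample, and MET overlapped VEH, with MET-1 below all others. Mean INHBE was 0.933 ± 0.0763 TPM with VEH and 4.46 ± 0.244 TPM with CJ28 (SD, n = 4). On the log2(TPM + 0.1) scale it rose by 2.14 with an SE of 0.18 (limma, adjusted p = 5.15e-07), and by 1.498 with a pseudocount of 1. Between CJ28 and MET the log2 fold change of INHBE was 2.36 (95% interval 1.97 to 2.75), and between MET and VEH it was -0.22 (-0.61 to 0.17, adjusted p = 0.956 in limma), which without MET-1 was 0.0017. The antisense lncRNA AC022506.2, which overlaps the end of INHBE on the other strand, had 0.173 ± 0.085 TPM in VEH and 0.390 ± 0.0548 in CJ28. Whether strand was used in counting is not given in the sources used here, and the part of that transcript in the INHBE values was not tested. In bulk RNA a change in the number of cells that express a gene and a change in RNA per cell cannot be told apart.

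INHA (ENSG00000123999.5, chromosome 2, 219569162 to 219575711), the alpha subunit that turns beta subunits into inhibins, had 1.88, 1.51, 1.56 and 1.74 TPM in VEH. The CJ28 samples had 0.52, 0.71, 0.85 and 0.58 TPM INHA, and the MET samples 1.00, 1.32, 1.34 and 1.63 TPM. The CJ28 samples were the 4 lowest of the 12, and MET reached into the VEH range with 1 sample. INHA fell from 1.67 ± 0.17 to 0.665 ± 0.147 TPM (SD, n = 4) with CJ28, and the log2 fold change was -1.23 with an SE of 0.16 (limma, adjusted p = 3.79e-05). Against MET the log2 fold change of INHA in CJ28 was -0.90 (95% interval -1.25 to -0.54, adjusted p = 0.000505 in limma). For MET against VEH it was -0.33 (-0.69 to 0.03, adjusted p = 0.933 in limma), an interval that includes 0. Because the level is low, the size of the INHA decrease in CJ28 depends on the pseudocount, with log2 fold changes of -1.34 at 0.01 and -0.68 at 1. The start of the INHA locus overlaps OBSL1 on the other strand, and OBSL1 had 7.11 ± 0.535 TPM in VEH and 6.26 ± 0.661 in CJ28.

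INHBA (ENSG00000122641.11, chromosome 7, 41667168 to 41705834), which encodes the beta A subunit of activin A, was scarce, with 0.13, 0.10, 0.13 and 0.18 TPM in VEH. In CJ28 it had 0.22, 0.22, 0.31 and 0.25 TPM and in MET 0.09, 0.14, 0.13 and 0.13 TPM. The CJ28 samples were the 4 highest (exact permutation test on TPM, two-sided, p = 0.0286 against VEH and against MET, the smallest that 4 against 4 samples allow). In a limma fit over all 40973 genes with a TPM above 0, of which 8.08% were called higher for CJ28 against VEH, the log2 fold change of INHBA was 0.58 (adjusted p = 0.0422). INHBB (ENSG00000163083.6, chromosome 2, 120346136 to 120351803), the beta B subunit, never exceeded 0.11 TPM and its groups overlapped, with 0.0425 ± 0.0263 TPM in VEH, 0.0175 ± 0.0096 TPM in CJ28 and 0.065 ± 0.037 TPM in MET (SD, n = 4). INHBC, the beta C subunit gene and no member, had 0.03 to 0.07 TPM in VEH, 0.26 to 0.33 TPM in CJ28 and 0.02 to 0.06 TPM in MET, and it is named because its values were seen.

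**Figure D1:**
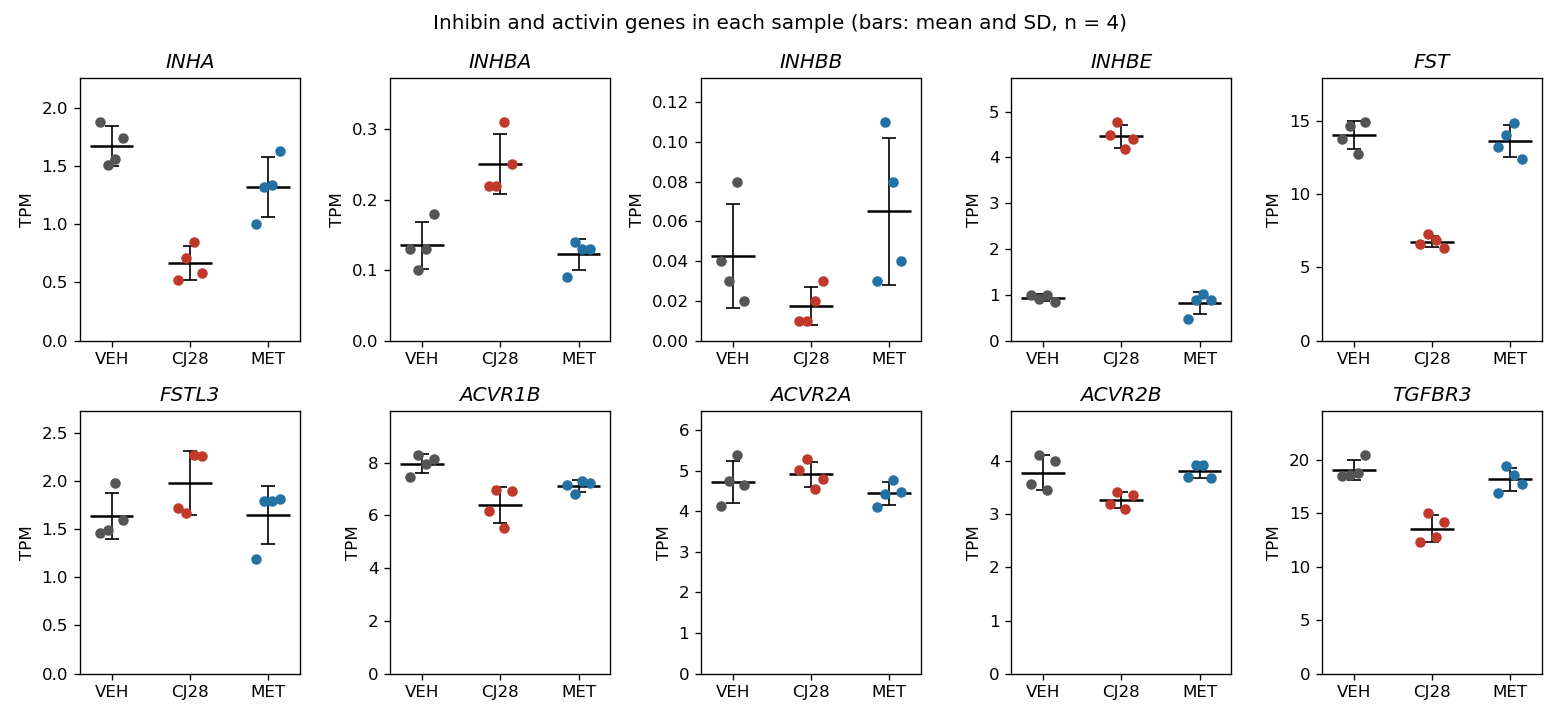
TPM of the 10 genes in each of the 12 samples, by group, with a separate linear axis from 0 for each gene. Points are samples and bars are the mean and SD of 4. INHBE and INHBA sit above all VEH and MET samples in CJ28, INHA, FST, TGFBR3 and ACVR2B sit below them, and the MET and VEH points overlap except in ACVR1B.

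The subunit pool changed in makeup with CJ28. Summed over INHA, INHBA, INHBB and INHBE it was 2.78 ± 0.204 TPM in VEH, 5.39 ± 0.22 TPM in CJ28 and 2.33 ± 0.505 TPM in MET (SD, n = 4). INHA held 60.0% ± 2.83 of it in VEH and 12.3% ± 2.57 in CJ28, while INHBE went from 33.6% ± 2.72 to 82.7% ± 3.30. In MET the shares were 57.4% ± 5.37 for INHA and 34.5% ± 4.50 for INHBE. The most abundant subunit transcript was thus INHA in every VEH and MET sample and INHBE in every CJ28 sample. INHBA held 4.85% ± 1.13 in VEH and 4.65% ± 0.842 in CJ28.

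**Figure D2:**
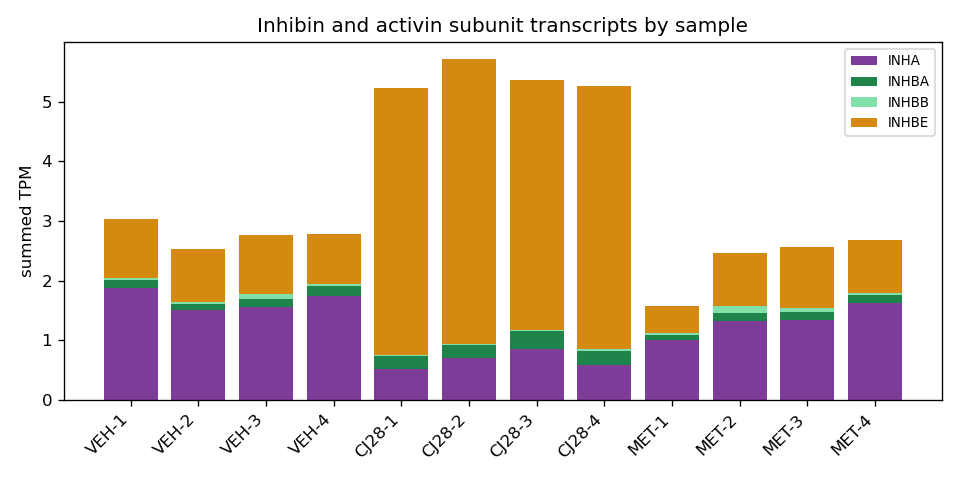
Stacked TPM of the 4 subunit genes in each sample, on a linear axis from 0. The CJ28 bars are taller, with a mean of 5.39 TPM against 2.78 in VEH, and mostly INHBE.

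Of the antagonists, FST (ENSG00000134363.12, chromosome 5, 53480626 to 53487134), which encodes follistatin, had 13.78, 14.64, 12.75 and 14.90 TPM in VEH. It had 6.58, 7.26, 6.84 and 6.32 TPM in CJ28 and 13.17, 13.99, 14.86 and 12.35 TPM in MET. The CJ28 values were the 4 lowest, and the ranges of MET and VEH overlapped almost fully. FST fell from 14.02 ± 0.971 to 6.75 ± 0.401 TPM (SD, n = 4), or by 1.04 on the log2 scale with an SE of 0.068 (limma, adjusted p = 5.75e-08). For MET against VEH the log2 fold change of FST was -0.04 (95% interval -0.19 to 0.10, adjusted p = 0.974 in limma), and for CJ28 against MET it was -0.998 (-1.15 to -0.85). FSTL3 (ENSG00000070404.10, chromosome 19, 676392 to 683392), the related antagonist, had 1.63 ± 0.239 TPM in VEH, 1.98 ± 0.33 TPM in CJ28 and 1.65 ± 0.303 TPM in MET, with overlapping groups. Its log2 fold change for CJ28 was 0.26 (95% interval -0.08 to 0.60, adjusted p = 0.178 in limma), and after median-of-ratios scaling it was 0.40 with an adjusted p of 0.049 in limma.

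TGFBR3 (ENSG00000069702.11, chromosome 1, 91680343 to 91906335), the inhibin co-receptor betaglycan, was the most abundant member in VEH, with 18.45, 18.56, 18.78 and 20.45 TPM. It had 12.29, 15.00, 12.74 and 14.15 TPM in CJ28 and 16.93, 19.39, 18.62 and 17.79 TPM in MET. CJ28 lay below both other groups, which overlapped each other. The log2 fold change of TGFBR3 was -0.49 for CJ28 against VEH (SE 0.066, limma adjusted p = 3.94e-05), -0.42 for CJ28 against MET and -0.07 for MET against VEH (95% interval -0.21 to 0.08). The type I receptor gene ACVR1B (ENSG00000135503.13, chromosome 12, 51951699 to 51997078) went from 7.46, 8.29, 7.95 and 8.15 TPM in VEH to 6.16, 6.96, 5.51 and 6.91 in CJ28, with 7.15, 6.80, 7.29 and 7.23 in MET. Both treated groups lay below VEH without overlap, as 32.7% of tested genes did for CJ28 and 2.03% for MET. The log2 fold change of ACVR1B was -0.32 for CJ28 (SE 0.071, limma adjusted p = 0.00204) and -0.16 for MET (unadjusted p = 0.0447, adjusted p = 0.933 in limma). With TPM recomputed over nuclear protein-coding genes the CJ28 decrease of ACVR1B was -0.12 and did not pass (adjusted p = 0.165 in limma).

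The type II receptor genes moved little. ACVR2A (ENSG00000121989.15, chromosome 2, 147844517 to 147930826) had 4.73 ± 0.517 TPM in VEH, 4.92 ± 0.31 TPM in CJ28 and 4.45 ± 0.275 TPM in MET (SD, n = 4), with overlapping groups. Its log2 fold change for CJ28 was 0.06 (95% interval -0.11 to 0.24, adjusted p = 0.547 in limma), and after median-of-ratios scaling 0.21 (adjusted p = 0.0462 in limma). ACVR2B (ENSG00000114739.14, chromosome 3, 38453890 to 38493142) had 3.79 ± 0.324 TPM in VEH, 3.27 ± 0.147 TPM in CJ28 and 3.82 ± 0.133 TPM in MET. All its CJ28 values lay below those of VEH, as for 32.7% of tested genes, and below those of MET. Its log2 fold change of -0.20 for CJ28 (adjusted p = 0.0216 in limma) was -0.05 after that scaling (adjusted p = 0.453 in limma), and the call was lost when VEH-2, VEH-4, CJ28-1 or CJ28-3 was left out (adjusted p from 0.052 to 0.0664 in limma, log2 fold changes from -0.19 to -0.16). In VEH the order of levels was TGFBR3, FST, ACVR1B, ACVR2A, ACVR2B, INHA, FSTL3, INHBE, INHBA and INHBB, and of neighbors in that order only INHA and FSTL3 overlapped between samples.

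**Figure D3:**
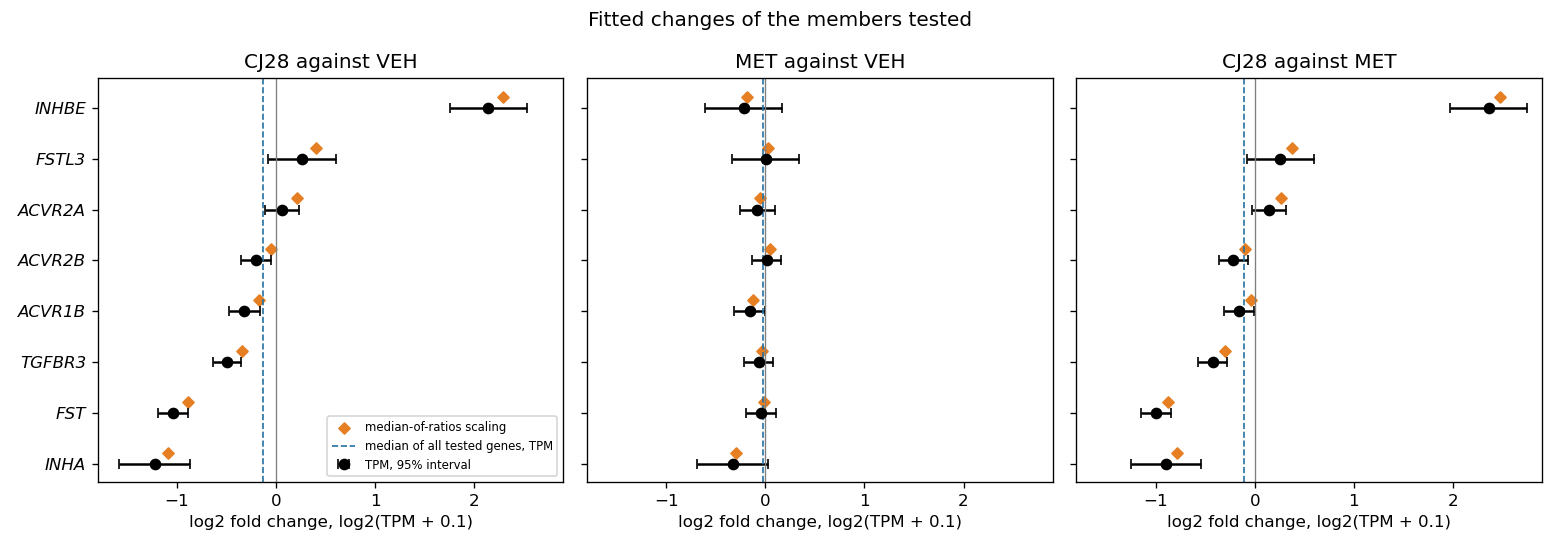
Log2 fold changes of the 8 members tested, with 95% intervals from limma (black) and the value after median-of-ratios scaling (orange), for the 3 comparisons. The dashed line is the median of all tested genes, -0.13 for CJ28 against VEH. INHBE, FST, INHA and TGFBR3 stay away from 0 under both scalings with CJ28. No interval for MET against VEH reaches a log2 change of 0.4 upward, but downward they reach -0.69 for INHA and -0.61 for INHBE.

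Directions of small changes in CJ28 depend on the scaling. Nuclear protein-coding genes took up 21.3% to 21.4% of TPM in CJ28 against 24.3% to 24.8% in VEH and 24.1% to 24.6% in MET, and the median change over all tested genes, CJ28 against VEH, was -0.13 (log2) as deposited and 0.014 after median-of-ratios scaling. After that scaling 7 of the 8 members tested were called, 3 higher and 4 lower, where 55.6% of all tested genes were, 29.3% higher and 26.3% lower. As deposited, 6 of the 8 had CJ28 samples that did not overlap VEH, against 50.3% of tested genes. INHBE, INHA, FST, TGFBR3 and ACVR1B kept their direction and their call, with log2 fold changes of 2.29, -1.09, -0.89, -0.34 and -0.17. ACVR1B passed only narrowly after that scaling (adjusted p = 0.0426 in limma). In TPM as deposited, 5 of 8 members were called directly between CJ28 and MET, 1 higher and 4 lower (INHBE, and INHA, FST, TGFBR3 and ACVR2B), against 55.5% of all tested genes, 20.9% higher and 34.6% lower. After median-of-ratios scaling 2 were higher and 3 lower, but no share over all tested genes is given for it, so nothing is read from that count. Under that scaling ACVR2B lost its call against MET (log2 fold change -0.10, adjusted p = 0.178 in limma). Both comparisons with VEH share the same 4 VEH samples. For MET against VEH, 0 of 8 were called by limma and 1, ACVR1B, had an unadjusted p under 0.05, where 1 of all tested genes was called (0.00595%) and 874 had an unadjusted p under 0.05. In the exact permutation test on TPM, 1 of the 10 members, again ACVR1B, reached the smallest p for MET (exact p = 0.0286).

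Ratios of members inside a library hardly depend on the share taken by other transcripts, so 4 of them were compared, in 12 exact permutation tests. INHA over the sum of INHBA and INHBB, the alpha subunit against the classical beta subunits, had a mean log2 of 2.68 ± 0.204 in VEH, 1.05 ± 0.21 in CJ28 and 2.31 ± 0.277 in MET (SD, n = 4). It was 3.10-fold lower in CJ28 than in VEH (two-sided exact permutation test, p = 0.0286, adjusted p = 0.049, lower in 4 of 4 samples), a ratio that rests on beta subunits near the pseudocount, with a log2 difference of -1.91 when 0.01 was added and -0.79 when 1 was added. FST plus FSTL3 over the sum of INHBA, INHBB and INHBE went from 3.70 ± 0.179 in VEH to 0.87 ± 0.0875 in CJ28, a 7.12-fold decrease (exact p = 0.0286, adjusted p = 0.049). The log2 difference was -2.92 with 0.01 added and -2.21 with 1 added. In both ratios the single genes (INHA and INHBA, FST and INHBE) already set CJ28 apart from VEH without overlap, in opposite directions. The exact p of these ratios thus had to be the smallest possible and is no support beyond that of the single genes. Antagonist transcripts thus stood at 13.03 times the beta subunit transcripts in VEH and at 1.83 times in CJ28, each with 0.1 TPM added to both sums. Most of that beta sum was INHBE, with a mean of 0.933 TPM in VEH and 4.46 TPM in CJ28, beside 0.135 and 0.25 TPM of INHBA. The fall of this ratio is thus largely the rise of INHBE and the fall of FST given above. Binding of antagonist proteins to any subunit was not tested. The log2 ratio was 3.84 ± 0.38 in MET and did not differ detectably from VEH (exact permutation p = 0.714). TGFBR3 over ACVR2A plus ACVR2B was 1.36-fold lower in CJ28 than in VEH (exact p = 0.0286, adjusted p = 0.049), and ACVR2A over ACVR2B was 0.57 ± 0.0644 on the log2 scale in CJ28, 0.31 ± 0.211 in VEH and 0.21 ± 0.0694 in MET. For the latter, the CJ28 and MET samples did not overlap (exact p = 0.0286, adjusted p = 0.049). CJ28 and VEH did not differ detectably (exact p = 0.114), and VEH-3, at 0.62, lay among the CJ28 samples. The adjusted p of 0.049 is shared by all ratio tests at the smallest exact p. These include the tests whose outcome the single genes had fixed. For the 2 receptor ratios it is thus no support beyond the exact p.

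**Figure D4:**
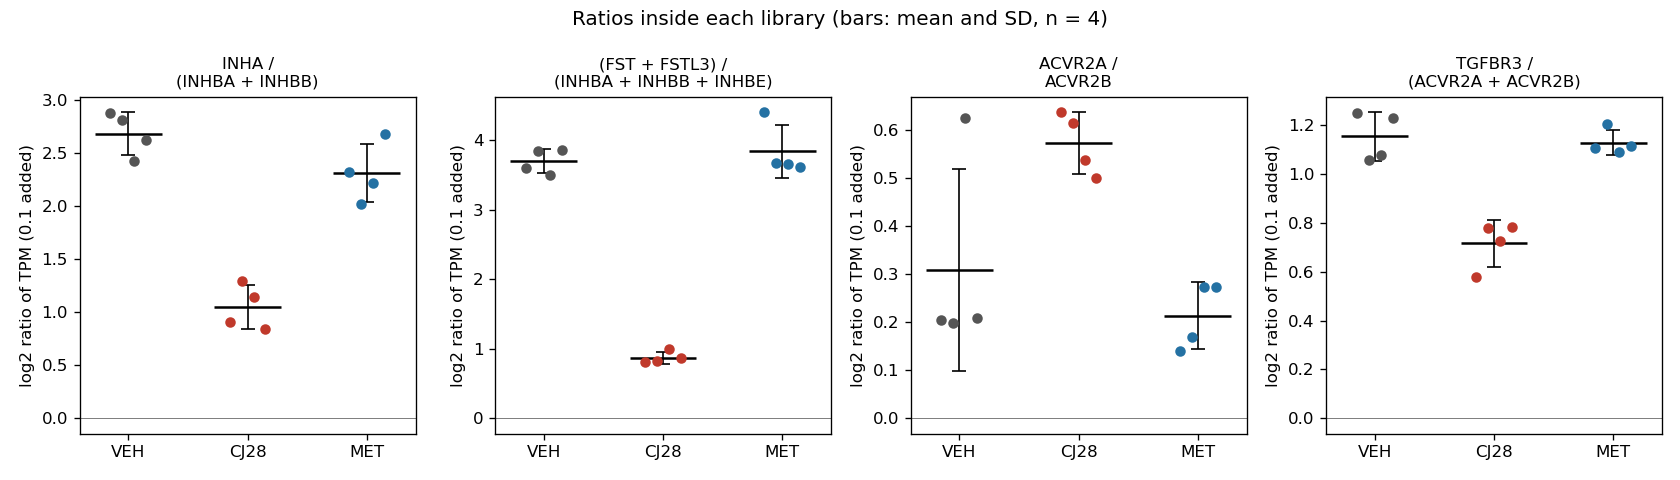
Log2 ratios of TPM inside each of the 12 libraries, with 0.1 added to each sum. Points are samples and bars are the mean and SD of 4. The antagonist ratio falls from 3.50 to 3.86 in VEH to 0.80 to 1.00 in CJ28, without overlap.

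Genes of the wider pathway were counted from lists of ligands, receptors, signalling genes and processing proteases. Of 17 other ligands, 9 were tested, and 1 rose and 6 fell with CJ28, with a median log2 fold change of -0.61. Over all tested genes 19.9% rose and 37.1% fell, with a median of -0.13. GDF15, a stress-induced ligand of the family, was the 1 that rose, from 0.140 ± 0.0535 to 9.70 ± 1.15 TPM (log2 fold change 5.37). It reached at most 0.20 TPM in VEH and 0.41 TPM in MET, so it passed the 0.5 TPM filter only through CJ28. With VEH near the 0.1 TPM added, the size of its change depends on that value. GDF11, another follistatin-bound ligand, fell from 11.1 ± 0.508 to 5.63 ± 0.368 TPM (-0.97) and BMP2 from 1.32 ± 0.12 to 0.470 ± 0.0753 TPM (-1.33). Of 13 other receptors and co-receptors, 10 were tested, and 2 rose and 3 fell (median -0.15), near the shares over all tested genes. After median-of-ratios scaling 3 rose and 3 fell, where 29.3% of all tested genes rose and 26.3% fell. TGFBR1, the type I receptor of TGF-beta, fell from 23.3 ± 1.58 to 11.8 ± 0.901 TPM (-0.97). AMHR2, the receptor of anti-Müllerian hormone, rose from 7.91 ± 0.44 to 13.3 ± 0.576 TPM (0.75), and ACVR1, a type I receptor shared with BMPs, from 1.81 ± 0.483 to 2.47 ± 0.157 TPM (0.46).

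Of 18 signalling genes, 16 were tested, and 5 rose and 7 fell with CJ28 (median -0.04), where 19.9% of all tested genes rose and 37.1% fell. After median-of-ratios scaling 6 rose and 2 fell, where 29.3% of all tested genes rose and 26.3% fell, so this split is set by the scaling. SMAD9, a BMP-pathway SMAD, rose from 0.863 ± 0.114 to 1.89 ± 0.144 TPM (log2 fold change 1.05), SMAD6, an inhibitory SMAD, from 2.18 ± 0.152 to 3.00 ± 0.27 TPM (0.44), and LEMD3, an inner nuclear membrane protein that binds SMADs, fell from 30.4 ± 1.43 to 19.97 ± 0.76 TPM (-0.60), each also after that scaling. Of the 4 processing proteases, 3 fell (median -0.39), where 37.1% of all tested genes fell, PCSK6 from 15.3 ± 0.79 to 9.63 ± 0.416 TPM (-0.66), PCSK5 from 2.26 ± 0.135 to 1.53 ± 0.196 (-0.54) and FURIN from 6.39 ± 0.147 to 5.41 ± 0.539 (-0.24), and FURIN did not pass after scaling (adjusted p = 0.296 in limma). No gene of these lists was called for MET against VEH.

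**Figure D5:**
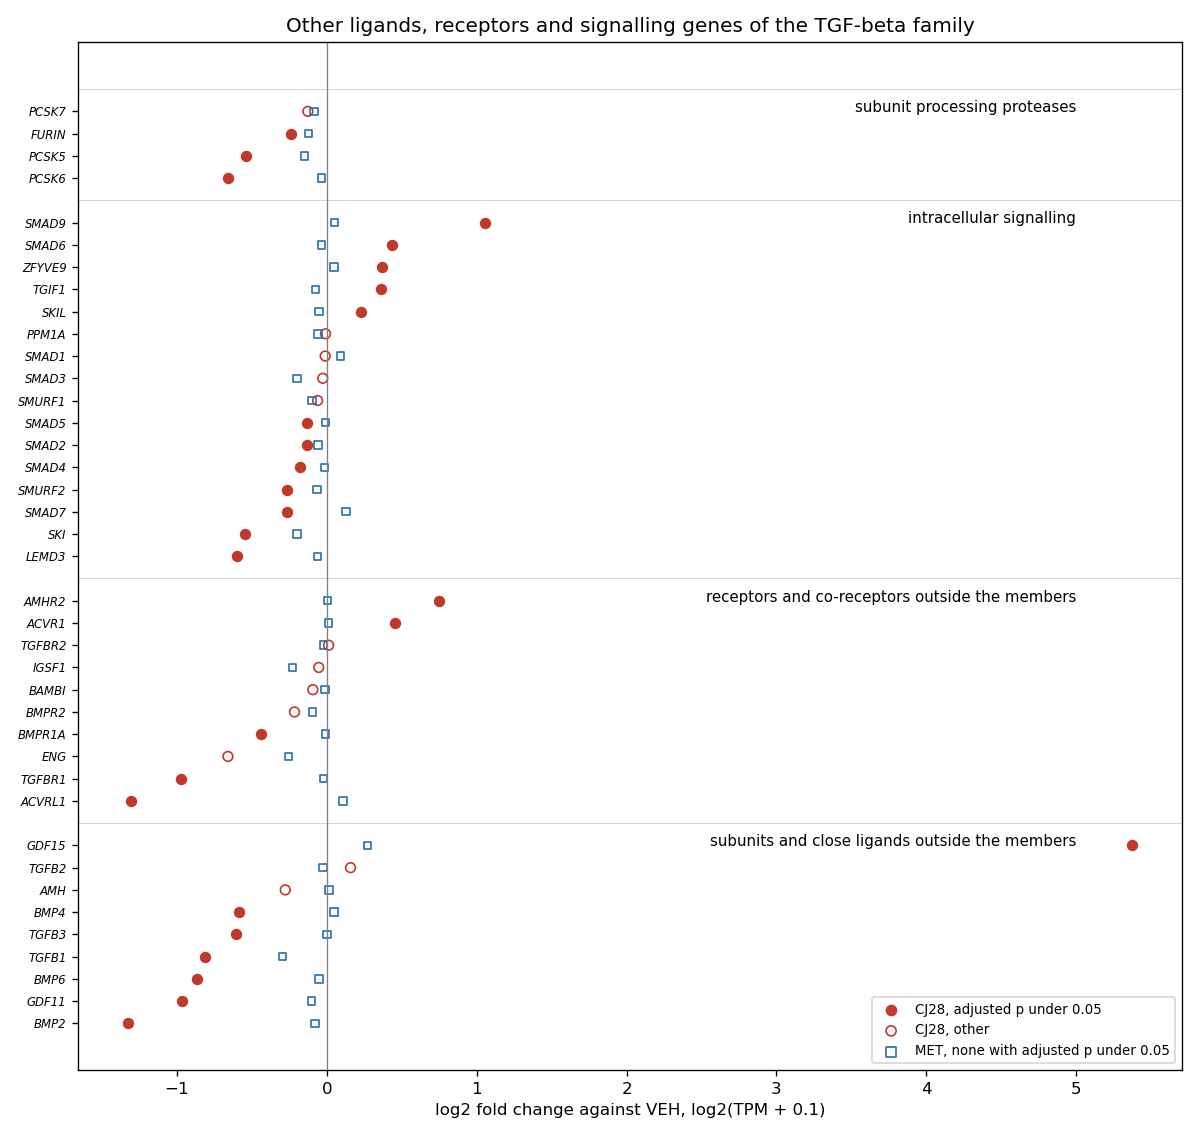
Log2 fold changes against VEH of the tested genes in the 4 lists, circles for CJ28 (filled where the adjusted p in limma was under 0.05) and squares for MET. The MET squares stay near 0, while the CJ28 circles run from -1.33 for BMP2 to 5.37 for GDF15.

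The identity of the cells was read from marker lists. The 8 adrenocortical markers summed to 283 to 293 TPM in VEH, 117 to 124 TPM in CJ28 and 281 to 296 TPM in MET. All 8 fell with CJ28, where 37.1% of all tested genes fell. Endothelial markers summed to at most 0.06 TPM and TH was listed at 0 in every sample. Fibroblast markers summed to 0.41 to 1.35 TPM in VEH, 0.07 to 0.47 TPM in CJ28 and 0.46 to 0.86 TPM in MET, immune markers to at most 0.53 TPM, and adrenal medulla markers, nearly all CHGA, to 0.48 to 1.17 TPM. INHA thus fell beside the adrenocortical markers, and the part of either in the other was not tested.

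Likeness to other genes was measured as the root mean square difference of centered log2(TPM + 0.1) over the 12 samples, among 13305 other tested genes whose mean was 1 TPM or more. Nearest to INHBE were HMOX1 (0.197), UAP1L1 (0.218) and PPP1R15A (0.268), with log2 fold changes of 2.30, 2.23 and 2.33 for CJ28. Nearest to TGFBR3 were GTF3C1 (0.0526), LETM1 (0.0567) and TCEA3 (0.0571), with -0.53, -0.49 and -0.46.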

How the data were processed

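RNA-seq of 12 NCI-H295R samples was used, 4 each of VEH, CJ28 and MET, grouped by the sample titles. Per the labels and the paper's methods, the authors trimmed reads with Cutadapt (version 2.8), mapped them to GRCh38 with STAR (version 2.7.10b) and quantified genes with RSEM (version 1.3.3), and they deposited TPM to 2 decimals. The annotation release is not given in the sources used here. TPM is no count, so no count model was run. The table itself holds no depth, and the read totals that the paper lists for each library were not used here. No samples had identical values.

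Here limma (version 3.58.1, in R 4.3.3) was run on log2(TPM + 0.1) of all 12 samples without covariates, using eBayes with trend, for the 16815 genes that reached 0.5 TPM in 4 or more samples. Two-sided p-values were Benjamini-Hochberg adjusted over all of these. Single genes and ratios were compared by exact permutation tests of means (scipy version 1.17.1). Median-of-ratios factors used the 22436 genes above 0 in all samples. The limma procedure was also run on simulated data in which few genes changed and no shift of scaling was present. That run does not cover a change as broad as that with CJ28, and its outcome is not given here. The members, the gene lists and the tests were chosen with earlier results of these data known. Named genes are the members, in each list the called genes with the 3 largest changes among those averaging 1 TPM or more, and the 3 genes nearest to INHBE (the largest change) and to TGFBR3 (the highest VEH level). Alternatives were pseudocounts of 1 and 0.01, all genes above 0, a filter on the mean (1 TPM), median-of-ratios scaling, a fit of each pair of groups alone, a replicate block, eBayes without trend, each sample left out in turn and, chosen after seeing the data, TPM over the 19944 nuclear protein-coding genes.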

Additional observations from a re-analysis of the deposited data

Results flagged for a closer look

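In each of the 30 sets of 4 samples (10 genes in 3 groups) the highest and the lowest value were compared with the rest, a test by which chance picks about 1 set in 20. It picked 2 values. FSTL3 had 1.19 TPM in MET-1, below 1.79 to 1.81 TPM in the other MET samples. MET-1 was also the lowest MET sample for INHA, INHBA, INHBB, INHBE, ACVR2A and TGFBR3, but not for FST, ACVR1B and ACVR2B. Without MET-1 the log2 fold change of INHA for MET against VEH was -0.21. TGFBR3 had 20.45 TPM in VEH-4, above 18.45 to 18.78 TPM in the other VEH samples. Leaving out VEH-4 moved no call of TGFBR3.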

How the results depend on the processing

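For CJ28 against VEH, INHBE, INHA, FST and TGFBR3 kept their direction and their call under all 21 alternatives each, with log2 fold changes from 1.498 to 2.43, -1.34 to -0.68, -1.09 to -0.85 and -0.54 to -0.29. The smallest values of INHBE and INHA came with a pseudocount of 1. The number of members called ranged from 5 to 7 for CJ28 against VEH, from 5 to 6 for CJ28 against MET and was 0 under every alternative for MET against VEH. With each sample left out in turn it was 5 to 6, 5 to 6 and 0. With TPM over nuclear protein-coding genes, FSTL3 (log2 fold change 0.47) and ACVR2A (0.27) were called higher, ACVR1B (-0.12) and ACVR2B (-0.0034) were not called, and for CJ28 against MET ACVR1B turned to 0.028 and ACVR2B (-0.03) lost its call. Values near 0 changed sign when samples were left out, with ranges of -9.6e-04 to 0.12 for ACVR2A (CJ28 against VEH), and for MET against VEH of -0.33 to 0.0017 for INHBE, -0.0485 to 0.14 for FSTL3, -0.0290 to 0.0528 for ACVR2B and -0.0242 to 0.0025 TPM for INHBA. The causes were not tested. ACVR1B was called for CJ28 against MET without CJ28-2 or CJ28-4 (adjusted p = 0.0356 and 0.038 in limma).

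Equal replicate numbers did not mark samples that deviated together (mean r across genes 0.0236 for CJ28 and VEH, -0.0237 for MET and VEH, -0.0478 for CJ28 and MET). With the replicate number as a block in limma, 6, 0 and 5 members were called for CJ28 against VEH, MET against VEH and CJ28 against MET, and no call changed. Ratios keep their mean difference under the block, and 4 pairs cannot give an exact p under 0.125. No counting limit was computed for INHBB and INHBA, which the table gives to 2 decimals.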
